A study of Homo sapiens with 12 samples.

Results

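The acute-phase genes SAA1, SAA2, SAA4, LCN2, SERPINA3, ORM1 and C3 and the C/EBP factors CEBPA, CEBPB and CEBPD were followed across 4 groups of MDA-MB-231 cells. These 10 genes were taken by symbol from a table of 19907 genes, in which 9 of them had a row. A total of 8 passed the filter on low values and were tested among 15957 genes. ORM1 was at 0 in every library and was not tested, and SAA4 had no row under its symbol and was not analysed here.

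MDA-MB-231 is an established human line of triple-negative breast cancer. The 4 groups, with 3 libraries each, were S134A-GR cells given 1 µM dexamethasone (Dex), S134A-GR cells given vehicle, WT-GR cells given 1 µM Dex and WT-GR cells given vehicle. WT-GR cells carried the wild-type glucocorticoid receptor, and S134A-GR cells a receptor in which alanine replaces a serine that can be phosphorylated. Dex, a synthetic agonist of this receptor, or vehicle was given for 6 h, after 18 h of serum starvation in IMEM containing 1% DCC that all groups shared. The labels do not say how the receptors were introduced, whether a line is 1 clone or whether the cells keep another receptor copy. Nothing in the labels ties the 3 libraries of a group to separate cultures, and the p-values therefore reflect only how these libraries vary, which may be technical variation. The series asks what Dex does in cells whose receptor lacks this phosphorylation site.

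Acute-phase proteins are secreted during inflammation and injury, mostly by the liver, and many of them are also made by epithelia and tumour cells. Interleukin-6 and interleukin-1 induce them through STAT3, NF-kB and C/EBP factors, and glucocorticoids are known to act together with these cytokines on many of their genes. C/EBP factors are leucine zipper proteins that bind DNA as dimers. In the liver C/EBPβ and C/EBPδ are the members known to rise in the acute phase, while C/EBPα is tied to the differentiated state.

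Depth, recovered from the values, ran from 56.4 to 100.6 M reads per library (M, mega). WT-GR Dex replicates 2 and 3 stood apart, with 193 and 210 genes at a single read, where the others had 352 to 409, and member calls that change without both are given. The deposited gene names of the Dex files are shifted against their values, so Dex values took the vehicle files' names by line order, and every Dex result rests on this step. By line order, each Dex library's correlation across genes with the average vehicle profile was between 0.9822 and 0.9860 on the log2 scale. In all 9 windows of 201 lines around the members, the same line matched best in every Dex library among shifts of up to 5 lines. NR3C1, the receptor's own gene, averaged 7784 and 8815 normalized counts in S134A-GR Dex and vehicle cells, and 9389 and 11771 in WT-GR Dex and vehicle cells. By the limma test described below, NR3C1 was lower in S134A-GR cells in vehicle (log2 difference -0.41, adjusted p = 0.000518) and in Dex (-0.27, adjusted p = 0.0099). Its part in the differences of the members was not tested. The NR3C1 count does not separate the receptor forms, so it is no check of the genotype labels. VIM, CD44, AXL and MSN, markers of this mesenchymal-like line, were abundant in every library, while ESR1 did not exceed 5.66 and CDH1 17.1 normalized counts. EPCAM (315 to 1093), GATA3 (786 to 1574) and FOXA1 (137 to 303 normalized counts), listed as low or absent in the line, were all detected.

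Dex raised the mRNA of CEBPB, CEBPD, SAA1, SAA2 and SERPINA3 in both genotypes, while LCN2, C3 and CEBPA did not pass the test in either. The SAA2 calls rested on few reads. They and the SERPINA3 call in S134A-GR cells were lost under some alternatives, given below. In S134A-GR cells the log2 differences between Dex and vehicle for the 5 genes ran from 1.19 for CEBPB to 4.08 for SAA1. In WT-GR cells they ran from 1.66 for SAA2 to 3.26 for SAA1. A gene was called at a Benjamini-Hochberg adjusted p of limma under 0.05 over all tested genes, and differences are on the scale of log2(normalized count + 1). Of the 8 tested members, 5 were higher in S134A-GR cells, where 7.99% of all tested genes were called higher and 15.7% in either direction. The same number was higher in WT-GR cells, where 13.9% of all tested genes were called higher and 27.9% in either direction. No tested member had a negative difference in either genotype. The median log2 difference of the 8 was 1.28 in S134A-GR and 1.71 in WT-GR cells, beside -0.02 over all tested genes in each. SAA2 passed the filter mainly through the WT-GR libraries and LCN2 mainly through the S134A-GR libraries, in Dex and in vehicle alike. The members were chosen with earlier results known, so these counts and medians are a description and not a test of the members.

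**Figure D1:**
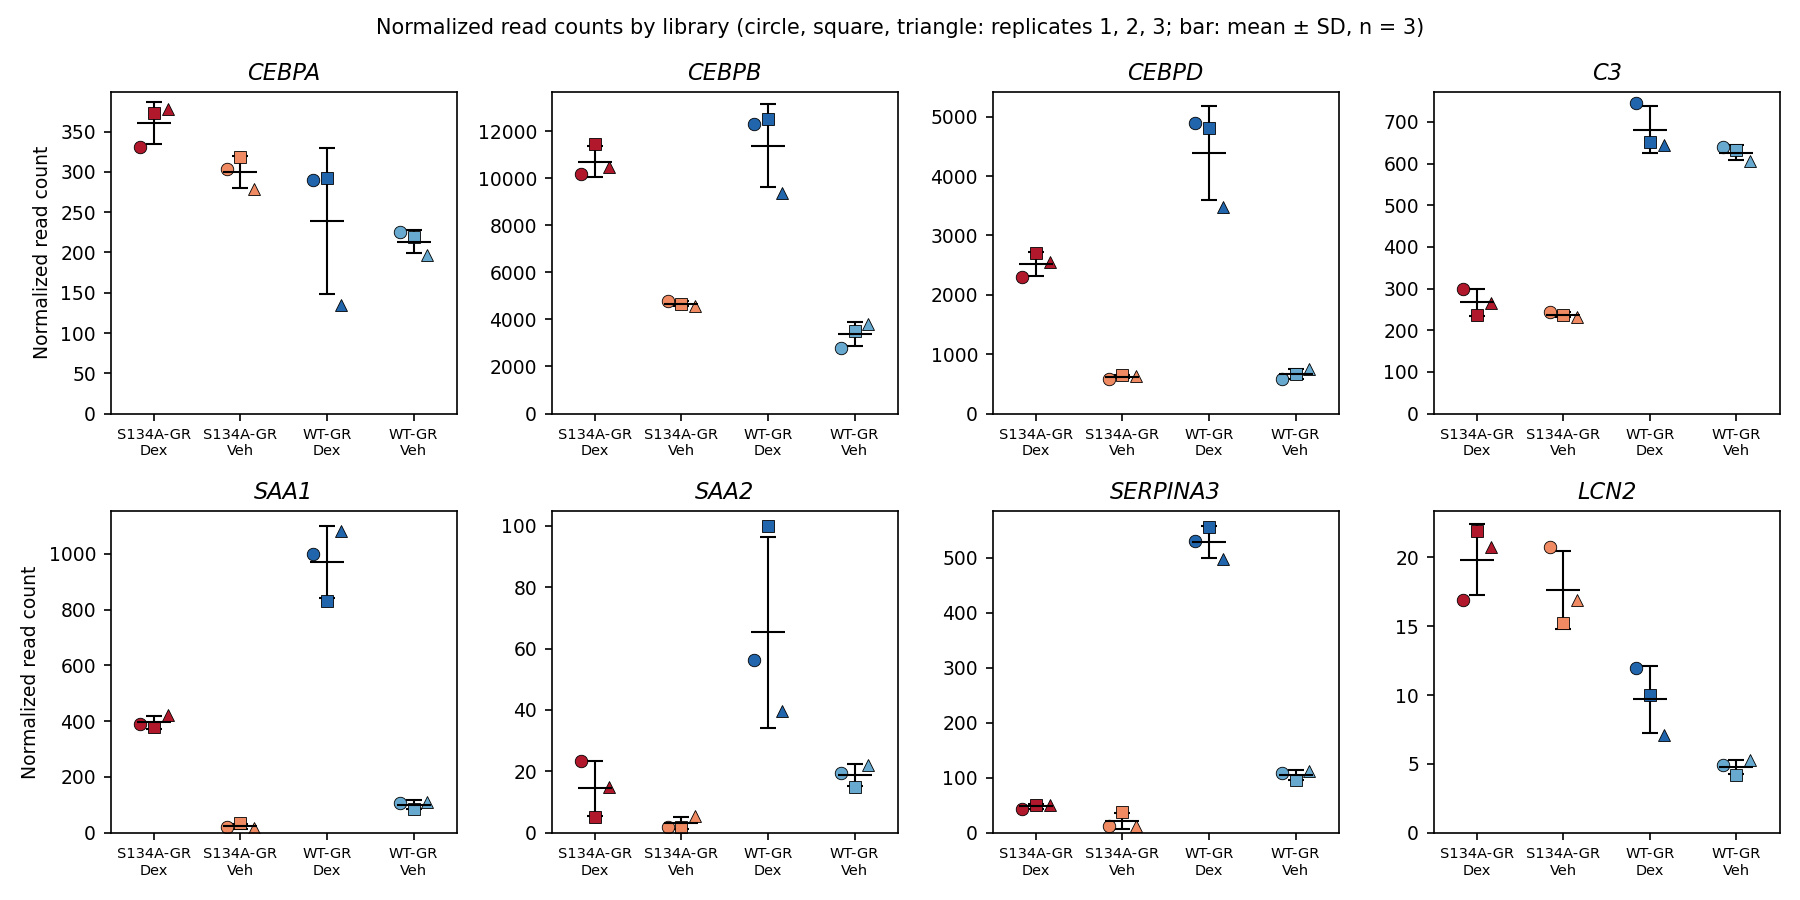
Normalized read count (vertical axes, each from 0) of the 8 tested members in each of the 12 libraries, by group from left to right S134A-GR Dex, S134A-GR vehicle, WT-GR Dex and WT-GR vehicle. Circles, squares and triangles are replicates 1, 2 and 3, and bars are mean ± SD (n = 3). In both genotypes all Dex libraries lie above all vehicle libraries for CEBPB, CEBPD, SAA1 and SERPINA3, and C3 separates by genotype.

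CEBPB encodes C/EBPβ, first described as a nuclear factor for interleukin-6 expression. It lies on chromosome 20 at 50190734 to 50192689 on the plus strand (GRCh38). CEBPB had 10185, 11442.5 and 10479 normalized counts in the S134A-GR Dex libraries, against 4784, 4638 and 4586 in S134A-GR vehicle. It had 12302, 12503 and 9358 in the WT-GR Dex libraries, against 2804, 3512 and 3786 in WT-GR vehicle. Both Dex groups therefore lay above their vehicle groups with no overlap, and the Dex groups of the 2 genotypes overlapped each other. The log2 difference was 1.19 (SE 0.11, adjusted p = 3.3e-06) in S134A-GR cells and 1.76 (SE 0.11, adjusted p = 6.38e-08) in WT-GR cells. The antisense gene CEBPB-AS1 shares 231 exon bases with CEBPB on the opposite strand, and the sources used here do not state whether strand was used in counting, so reads over these bases are uncertain. CEBPB-AS1 averaged 105, 110.5, 107 and 118 normalized counts in S134A-GR Dex, S134A-GR vehicle, WT-GR Dex and WT-GR vehicle, and it was not called in any comparison.

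CEBPD encodes C/EBPδ, the family member most closely tied to the acute response in the liver, and lies on chromosome 8 at 47736909 to 47739086 on the minus strand. Its values were 2295, 2704 and 2561 normalized counts in S134A-GR Dex, against 590.04, 641 and 628 in S134A-GR vehicle. In WT-GR cells they were 4893, 4811 and 3482 in Dex, against 578, 666 and 748 in vehicle. The vehicle groups of the genotypes overlapped, and every S134A-GR Dex library lay below every WT-GR Dex library. The log2 difference between Dex and vehicle was 2.02 (SE 0.12, adjusted p = 4.41e-08) in S134A-GR and 2.72 (SE 0.12, adjusted p = 2.09e-09) in WT-GR cells.

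CEBPA encodes C/EBPα, which in many tissues accompanies arrest of growth and differentiation, and lies on chromosome 19 at 33299934 to 33302564 on the minus strand. It had 331, 374 and 378 normalized counts in S134A-GR Dex, against 303.5, 318 and 279 in S134A-GR vehicle. In WT-GR cells it had 290.2, 292 and 134.2 in Dex, against 225, 219 and 197 in vehicle. The S134A-GR groups did not overlap, and replicate 3 of WT-GR Dex was the lowest library of all. Neither difference was called: it was 0.26 (95% interval -0.23 to 0.76, adjusted p = 0.559) in S134A-GR and 0.08 (-0.42 to 0.58, adjusted p = 0.831) in WT-GR cells. Without that replicate the WT-GR difference was 0.45 (adjusted p = 0.00987), and without both WT-GR Dex replicates 2 and 3 it was 0.44 (adjusted p = 0.0342). With limma's library weights the S134A-GR difference was 0.32 (adjusted p = 0.0445). CEBPA-AS1, a gene 293 bases away on the opposite strand that the annotation used here lists as CEBPA-DT, averaged 61.8 and 51.2 normalized counts in S134A-GR Dex and vehicle and 38.2 and 51.1 in WT-GR Dex and vehicle, with no call in either Dex response.

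SAA1 and SAA2 encode serum amyloid A, apolipoproteins of high-density lipoprotein that rise steeply in plasma in the acute phase. They lie in opposite orientation on chromosome 11, SAA1 at 18266174 to 18269977 on the plus strand and SAA2 at 18239223 to 18248643 on the minus strand. SAA1 had 389, 378 and 423 normalized counts in S134A-GR Dex, against 19.8, 33.5 and 16.9 in S134A-GR vehicle. In WT-GR cells SAA1 had 1000.4, 829.5 and 1080.1 in Dex, against 108, 83.5 and 112 in vehicle. The 4 groups did not overlap, in the order WT-GR Dex, S134A-GR Dex, WT-GR vehicle and S134A-GR vehicle from high to low.

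The SAA1 Dex response was the largest of the 8 tested members in both genotypes, at 4.08 (SE 0.22, adjusted p = 8.5e-09) in S134A-GR and 3.26 (SE 0.22, adjusted p = 8.85e-08) in WT-GR cells. As a ratio of means it was 16.96-fold in S134A-GR and 9.62-fold in WT-GR cells, while the gain in mean level was 373 normalized counts in S134A-GR and 869 in WT-GR cells. The genotypes thus stood in opposite orders on the relative and on the absolute scale.

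SAA2 had few reads, 6 to 22 reads in S134A-GR Dex, 2 to 6 in S134A-GR vehicle, 33 to 100 in WT-GR Dex and 12 to 21 in WT-GR vehicle. Its values were 23.2, 5.25 and 15.1 normalized counts in S134A-GR Dex, against 1.89, 2.03 and 5.35 in S134A-GR vehicle. In WT-GR cells they were 56.3, 99.8 and 39.7 in Dex, against 19.6, 14.8 and 22.1 in vehicle. The WT-GR groups did not overlap, and the S134A-GR groups overlapped at the lowest Dex library. The log2 difference was 1.82 (SE 0.54, adjusted p = 0.0353) in S134A-GR and 1.66 (SE 0.54, adjusted p = 0.0359) in WT-GR cells. Both calls rest on few reads. In WT-GR cells the call was lost without WT-GR Dex replicate 1 or 2 or any of the 3 WT-GR vehicle replicates (adjusted p = 0.0535 to 0.125), and without both WT-GR Dex replicates 2 and 3 (1.55, adjusted p = 0.125). In S134A-GR cells it was lost without S134A-GR Dex replicate 1 or 3 or S134A-GR vehicle replicate 1 or 2 (adjusted p = 0.116 to 0.159), with a pseudocount of 8 (adjusted p = 0.0897) and with only the groups compared in the fit (adjusted p = 0.0695).

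The SAA1 and SAA2 transcripts resemble each other, so that shared reads may be split between the genes or left uncounted. The sources used here do not state how such reads were handled. Of the 862 distinct 75-base windows of annotated SAA1 transcripts, 302 (35.0%) also occur in SAA2 transcripts. Summed to 1 row, SAA1 and SAA2 differed between Dex and vehicle by 3.94 (adjusted p = 2.74e-09) in S134A-GR and 3.11 (adjusted p = 3.1e-08) in WT-GR cells. Most of this sum is SAA1, so it says little of SAA2, and it would not regain uncounted reads. SAA2 also shares 267 exon bases with the read-through gene SAA2-SAA4, which was not analysed here.

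SERPINA3 encodes alpha-1-antichymotrypsin, an inhibitor of cathepsin G, and lies on chromosome 14 at 94612377 to 94624055 on the plus strand. It had 43.3, 50.8 and 50.9 normalized counts in S134A-GR Dex, against 12.3, 37.5 and 12.5 in S134A-GR vehicle. In WT-GR cells it had 531, 555 and 497 in Dex, against 109, 95.1 and 112 in vehicle. The S134A-GR Dex libraries lay below the WT-GR vehicle libraries, and S134A-GR vehicle replicate 2 was the highest of its group by far. The log2 difference was 1.37 (SE 0.32, adjusted p = 0.00939) in S134A-GR and 2.32 (SE 0.32, adjusted p = 0.000144) in WT-GR cells. The S134A-GR call was lost without S134A-GR vehicle replicate 1 (1.11, adjusted p = 0.0512) and with only the 2 S134A-GR groups in the fit (adjusted p = 0.0699), and it was 1.88 (adjusted p = 1.36e-05) without S134A-GR vehicle replicate 2.

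The 250 bases before the RefSeq start are shown for SERPINA3, the acute-phase member whose promoter letters match the receptor hexamer, and for LCN2, whose promoter letters match the C/EBP core. Both are from RefSeq (GRCh38.p14, plus strand), SERPINA3 at chr14:94612141-94612390 and LCN2 at chr9:128149203-128149452, in lower case with the matches in capitals. RefSeq and GENCODE place these starts differently, so that the LCN2 stretch lies within the span of the GENCODE gene given below and the SERPINA3 stretch ends past the GENCODE start given above.
SERPINA3: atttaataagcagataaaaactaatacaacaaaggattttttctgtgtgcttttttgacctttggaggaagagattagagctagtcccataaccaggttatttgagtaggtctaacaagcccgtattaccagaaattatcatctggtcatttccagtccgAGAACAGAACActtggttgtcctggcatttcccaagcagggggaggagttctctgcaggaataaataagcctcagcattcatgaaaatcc
LCN2: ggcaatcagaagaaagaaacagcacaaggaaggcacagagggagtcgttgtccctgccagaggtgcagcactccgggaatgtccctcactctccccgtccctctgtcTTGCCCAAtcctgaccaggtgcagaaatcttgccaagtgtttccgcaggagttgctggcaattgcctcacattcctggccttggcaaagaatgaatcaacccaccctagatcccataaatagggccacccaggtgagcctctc
The letters searched on both strands were AGAACA (the hexamer of the glucocorticoid receptor's palindrome, found in 12.4% of 35116 promoters of the same 250 bases), TTGCNNAA (C/EBP core, 9.05%) and TATAAA (10.7%). In SERPINA3 the hexamer occurred 2 times, at positions -90 to -85 and -85 to -80 from the start, so that the matches share 1 base. In LCN2 the C/EBP core occurred at 1 place, at -143 to -136. Promoters were matched for 6 of the 10 members (7 sequences, of which 2 belong to CEBPB). The SAA4 promoter held 3 C/EBP cores, and ORM1, CEBPA and 1 of the CEBPB promoters held TATAAA. A match is a description of these letters only, not of binding.

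LCN2 encodes lipocalin 2, a secreted protein that withholds iron by binding bacterial siderophores, and lies on chromosome 9 at 128149071 to 128153455 on the plus strand. It had 16.9, 21.9 and 20.7 normalized counts in S134A-GR Dex, against 20.7, 15.2 and 16.9 in S134A-GR vehicle. In WT-GR cells it had 11.95, 9.98 and 7.12 in Dex, against 4.89, 4.23 and 5.26 in vehicle. These are 16 to 25 reads in S134A-GR Dex, 15 to 22 in S134A-GR vehicle, 7 to 10 in WT-GR Dex and 3 to 5 in WT-GR vehicle. The S134A-GR groups overlapped and the WT-GR groups did not. The log2 difference was 0.16 (95% interval -0.65 to 0.98, adjusted p = 0.866) in S134A-GR and 0.86 (0.04 to 1.68, adjusted p = 0.108) in WT-GR cells. The WT-GR difference was called with library weights (1.04, adjusted p = 0.0351) and without WT-GR Dex replicate 3 (1.05, adjusted p = 0.0496).

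C3 encodes the central component of complement, on which its activation pathways converge, and lies on chromosome 19 at 6677704 to 6730562 on the minus strand. It had 300.1, 236 and 265 normalized counts in S134A-GR Dex, against 243, 237 and 232 in S134A-GR vehicle. In WT-GR cells it had 746, 653 and 645 in Dex, against 639, 633 and 605 in vehicle. The WT-GR groups were just apart and the S134A-GR groups overlapped. Neither difference was called, at 0.16 (95% interval -0.06 to 0.39, adjusted p = 0.388) in S134A-GR and 0.12 (-0.11 to 0.35, adjusted p = 0.423) in WT-GR cells.

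ORM1 encodes alpha-1-acid glycoprotein, a plasma carrier of basic drugs whose rat gene is a known target of glucocorticoids. It had 0 reads in all 12 libraries, which with a limit of 3 reads allows up to 2.63 to 5.12 normalized counts, depending on the library. This limit covers counting error only, and it takes each read as an independent fragment. Independent fragments may be fewer than reads, so the limit may be too low.

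**Figure D2:**
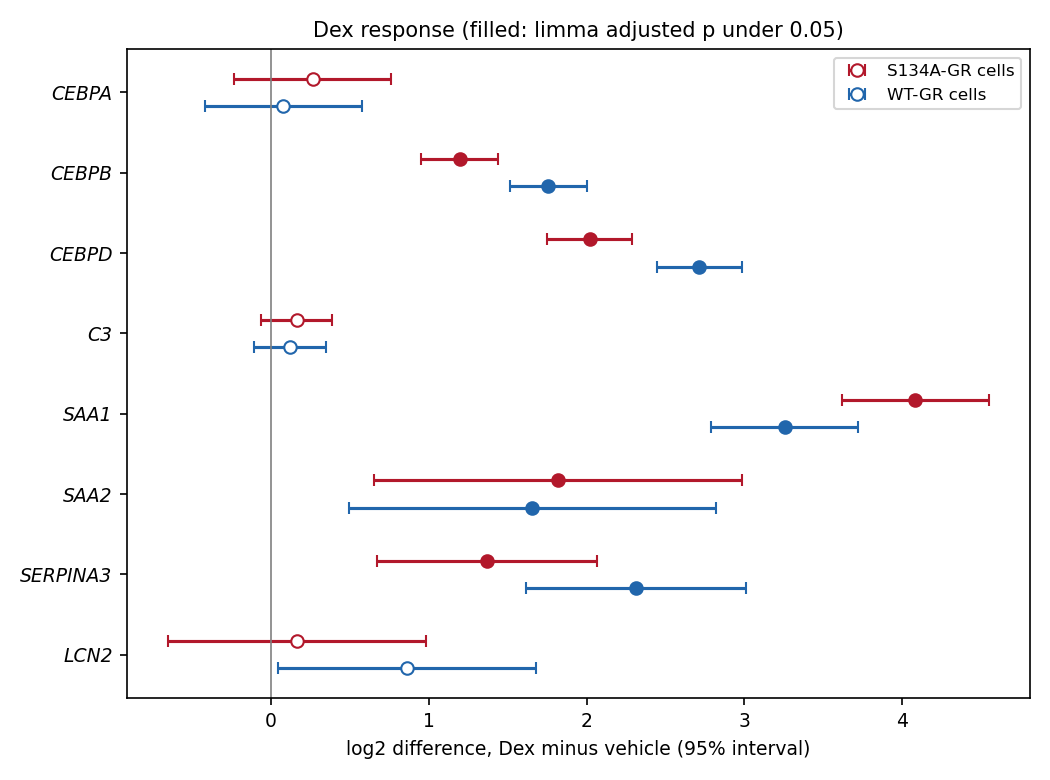
Log2 difference between Dex and vehicle (horizontal axis) of each tested member, with its 95% interval, S134A-GR cells above and WT-GR cells below within each gene. Filled points passed the limma test. SAA1 has the largest point in both genotypes (4.08 in S134A-GR, 3.26 in WT-GR), and the intervals of C3 and CEBPA span 0 in both.

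Without overlap between their groups, 5 members were higher in Dex in S134A-GR cells (SAA1, SERPINA3, CEBPA, CEBPB and CEBPD), where 18.2% of all tested genes were higher in this way and 38.6% differed in either direction. In WT-GR cells 7 were higher (all tested members except CEBPA), where 16.7% of all tested genes were higher in this way and 35.1% differed in either direction.

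The difference between the genotypes in the Dex response was not called for any of the 8 tested members by limma, with 0.414% of all tested genes called. At an unadjusted limma p under 0.05 there were 3, SAA1, CEBPB and CEBPD. edgeR with TMM scaling called 0 of the 8, and DESeq2 called 2, CEBPB and CEBPD. DESeq2 gave no adjusted p for SAA2 and LCN2 here, so it could not call them. Among all tested genes edgeR with TMM called 61 and DESeq2 506, beside 66 by limma. On the log2 scale the S134A-GR response minus the WT-GR response was -0.70 for CEBPD (SE 0.18, unadjusted p = 0.00162, adjusted p = 0.115) and -0.56 for CEBPB (SE 0.16, unadjusted p = 0.00374, adjusted p = 0.145). It was 0.83 for SAA1 (SE 0.31, unadjusted p = 0.0176, adjusted p = 0.217) and -0.95 for SERPINA3 (SE 0.46, unadjusted p = 0.0589, adjusted p = 0.304). For the other 4 the adjusted p was between 0.508 and 0.930, and their intervals were wide for SAA2 (-1.49 to 1.81) and LCN2 (-1.85 to 0.46) and narrower for C3 (-0.28 to 0.36) and CEBPA (-0.52 to 0.89).

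WT-GR Dex replicate 3, the lowest of its group for all 3 C/EBP genes, bore on these differences. Without it CEBPD was called at -0.86 (adjusted p = 0.0101) and CEBPB at -0.70 (adjusted p = 0.0194). Without both WT-GR Dex replicates 2 and 3 they were called at -0.87 (adjusted p = 0.0202) and -0.69 (adjusted p = 0.0272), in a fit where the remaining WT-GR Dex library is assumed to vary like the other groups. They were also called with library weights, at -0.72 (adjusted p = 0.00243) for CEBPD and -0.57 (adjusted p = 0.00549) for CEBPB, and by DESeq2 (adjusted p = 0.00691 for CEBPD and 0.0213 for CEBPB). Leaving out any other single library called none of the 8. Calls of the difference of responses also rose among all tested genes, from 66 in the main fit. They numbered 1604 once WT-GR Dex replicate 3 was dropped, 506 by DESeq2 and 2854 when libraries were weighted. The calls of CEBPD and CEBPB in these fits thus came with more calls among all genes, and nothing particular to the C/EBP genes is read from them. Over all alternatives the adjusted p ran from 0.0533 to 0.434 for SAA1 and from 0.0538 to 0.554 for SERPINA3. The CEBPA difference was 0.19 with all libraries and -0.19 without WT-GR Dex replicate 3 (adjusted p = 0.450).

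**Figure D3:**
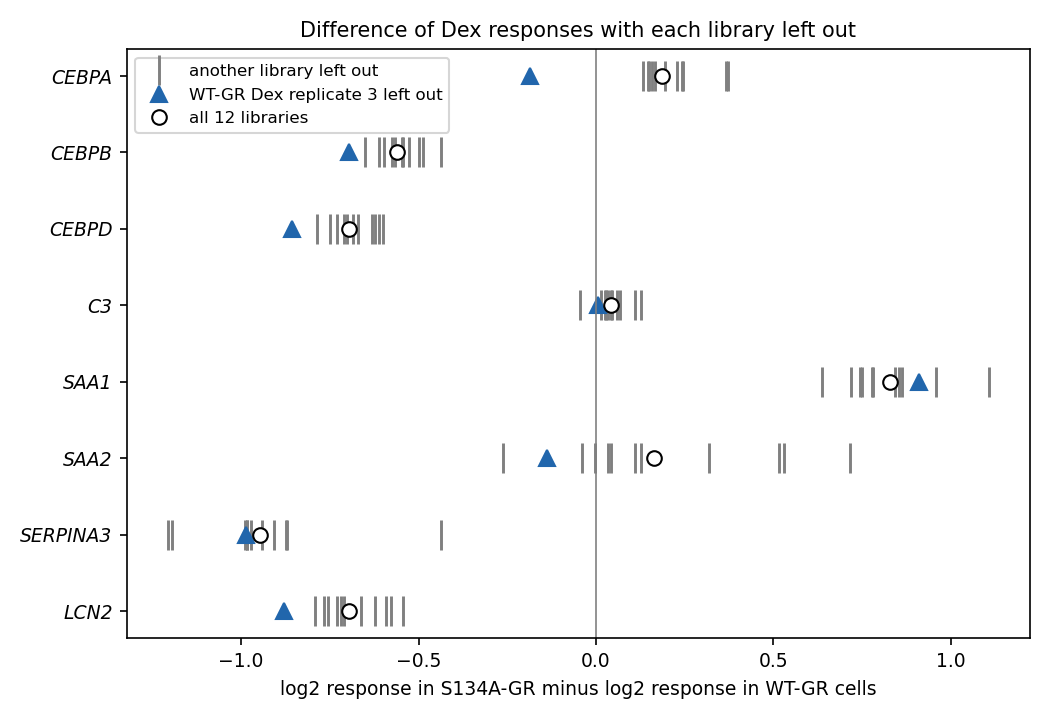
Log2 Dex response in S134A-GR cells minus that in WT-GR cells (horizontal axis) for each tested member. Open circles are the fit with all 12 libraries, triangles the fit without WT-GR Dex replicate 3, and ticks the fits without each other library. CEBPB and CEBPD stay below 0 in all of them, and the triangle of CEBPA lies on the other side of 0 from its circle.

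Between the genotypes the acute-phase members were set apart already in vehicle. In S134A-GR cells SAA1, SAA2, SERPINA3 and C3 were lower in both treatments, and LCN2 was higher, relative to WT-GR cells. Among the C/EBP factors CEBPB was higher in S134A-GR cells in vehicle, CEBPD lower in Dex and CEBPA higher in Dex. In vehicle 6 of the 8 tested members were called, 2 higher and 4 lower in S134A-GR cells, where 50.5% of all tested genes were called (23.8% higher and 26.7% lower). In Dex 7 were called, 2 higher and 5 lower, where 49.7% of all tested genes were called (23.4% higher and 26.3% lower). The members' shares were above those of all tested genes, but the members were chosen with earlier results known, and nothing particular to them is read from this.

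LCN2 passed the filter mainly through the S134A-GR libraries and SAA2 mainly through the WT-GR libraries, the groups where each was high, so their genotype calls, and the counts and medians that include them, are a description.

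In vehicle the log2 difference, S134A-GR minus WT-GR, was -2.48 for SERPINA3 (SE 0.32, adjusted p = 2.98e-05) and -2.11 for SAA1 (SE 0.22, adjusted p = 3.55e-06). It was -2.36 for SAA2 (SE 0.54, adjusted p = 0.00247), -1.39 for C3 (SE 0.10, adjusted p = 2.11e-07) and 1.68 for LCN2 (SE 0.38, adjusted p = 0.00225). As ratios of means SERPINA3 was 5.08-fold, SAA1 4.31-fold and C3 2.64-fold lower in S134A-GR vehicle cells, and LCN2 3.68-fold higher. CEBPB was higher by 0.48 (SE 0.11, adjusted p = 0.0029), with every S134A-GR vehicle library above every WT-GR vehicle library. The difference was 0.49 for CEBPA (95% interval -0.01 to 0.99, adjusted p = 0.0938) and -0.09 for CEBPD (-0.36 to 0.18, adjusted p = 0.566). The CEBPA difference was called without WT-GR Dex replicate 3 (adjusted p = 0.00157), which enters this comparison only through the shared estimate of the spread, likewise without both WT-GR Dex replicates 2 and 3 (adjusted p = 0.0017), with only the vehicle groups in the fit (adjusted p = 0.00415) and by DESeq2 (adjusted p = 0.0486).

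In Dex the differences were -3.42 for SERPINA3 (SE 0.32, adjusted p = 1.76e-06), -1.28 for SAA1 (SE 0.22, adjusted p = 0.000267), -2.20 for SAA2 (SE 0.54, adjusted p = 0.00417) and -1.35 for C3 (SE 0.10, adjusted p = 2.89e-07). SERPINA3 was 10.9-fold and SAA1 2.45-fold lower in S134A-GR Dex cells as ratios of means. CEBPD was lower by 0.79 on the log2 scale (-0.79, SE 0.12, adjusted p = 0.000158), and the CEBPB difference was -0.08 (95% interval -0.32 to 0.17, adjusted p = 0.587). CEBPA was higher by 0.68 (SE 0.23, adjusted p = 0.0266), a value that was 0.30 without WT-GR Dex replicate 3 (adjusted p = 0.0456) and whose call was lost without S134A-GR Dex replicate 2 or 3 (adjusted p = 0.0699 and 0.0731), with only the Dex groups in the fit (adjusted p = 0.0842) and without both WT-GR Dex replicates 2 and 3 (0.31, adjusted p = 0.103). LCN2 was higher by 0.98 (SE 0.38, adjusted p = 0.0456), a call lost in 10 of the 12 fits with 1 library left out (all but those without WT-GR Dex replicate 1 or WT-GR vehicle replicate 1), by DESeq2 (adjusted p = 0.0749) and without both WT-GR Dex replicates 2 and 3 (0.68, adjusted p = 0.241).

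Without overlap between the genotypes, 3 members were higher and 4 lower in S134A-GR vehicle cells, where 64.3% of all tested genes did not overlap (31.5% higher and 32.7% lower). In Dex 2 were higher and 5 lower, where 52.4% did not overlap (25.3% higher and 27.1% lower). Some luminal breast markers moved with genotype as well. The sum of the 5 of 6 luminal markers with a row was 2352 to 2572 in S134A-GR Dex and 2139 to 2306 in S134A-GR vehicle, against 5030 to 5748 in WT-GR Dex and 6034 to 6656 normalized counts in WT-GR vehicle. KRT19 and AGR2 averaged lower in S134A-GR cells. KRT19 averaged 706 and 837 in S134A-GR Dex and vehicle, against 3099 and 4158 normalized counts in WT-GR Dex and vehicle. AGR2 averaged 0.352 and 7.40 in S134A-GR Dex and vehicle, against 905 and 1174 normalized counts in WT-GR Dex and vehicle, and ESR1 was at or near 0 throughout. GATA3 and FOXA1 went the other way: GATA3 averaged 1489 and 1093 in S134A-GR Dex and vehicle, against 1153 and 808 in WT-GR Dex and vehicle, and FOXA1 averaged 239.6 and 289, against 198 and 229. Their part in the genotype differences of the members was not tested. In bulk RNA, fewer cells expressing a gene and less RNA per cell cannot be told apart.

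**Figure D4:**
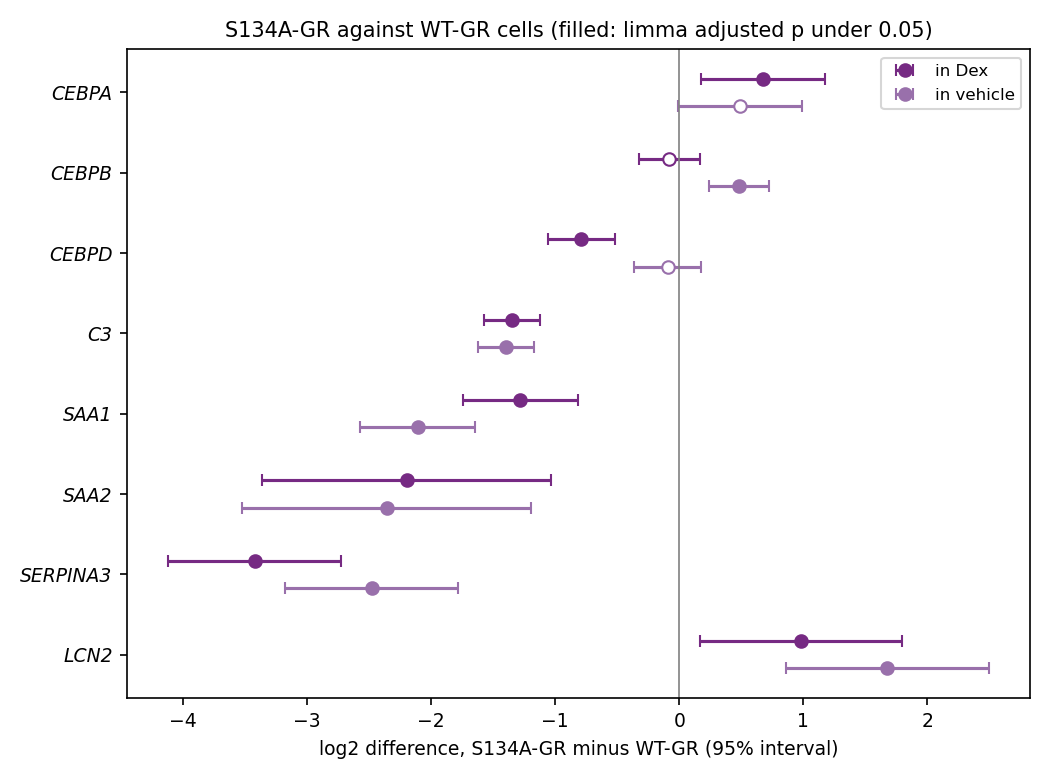
Log2 difference between S134A-GR and WT-GR cells (horizontal axis) of each tested member with its 95% interval, in Dex above and in vehicle below within each gene. Filled points passed the limma test. SERPINA3, SAA2, SAA1 and C3 lie left of 0 in both treatments and LCN2 right of 0, while CEBPD is set apart in Dex (-0.79) and not called in vehicle (-0.09).

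Levels of different genes were compared per kilobase of annotated exons (GENCODE 29). The length joins the exons of all annotated transcripts of a gene, 2227 bases for SAA2 and 796 for SAA1. Which transcripts were present was not tested, and the ranks depend on this length. On this scale CEBPB was the highest member in every group, at 5471 ± 336 in S134A-GR Dex, 2387 ± 52.6 in S134A-GR vehicle, 5822 ± 900.1 in WT-GR Dex and 1722 ± 259 normalized counts per kilobase in WT-GR vehicle (SD, n = 3). CEBPD ranked 2 in every group. SAA1 ranked 3 in S134A-GR Dex (498 ± 29.4), WT-GR Dex (1219 ± 161) and WT-GR vehicle (127 ± 19.1), and 4 in S134A-GR vehicle (29.4 ± 11.1), where C3 (28.5 ± 0.694) lay within its spread. CEBPA and C3 were neighbours within their spread in WT-GR Dex (90.8 ± 34.5 and 81.8 ± 6.76) and in WT-GR vehicle (81.2 ± 5.59 and 75.1 ± 2.14). SERPINA3 ranked 7 in S134A-GR Dex (9.65 ± 0.863) and 4 in WT-GR Dex (105 ± 5.79). LCN2 was the lowest detected member in the WT-GR groups (6.06 ± 1.52 in Dex and 3.00 ± 0.329 in vehicle). SAA2 was the lowest in the S134A-GR groups (6.52 ± 4.05 in Dex and 1.39 ± 0.879 in vehicle), and in Dex SERPINA3 lay within its spread.

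Other genes of the pathway came from 5 lists chosen for this work, and related genes moved in both directions. Their calls stand beside 15.7% of all tested genes called for Dex in S134A-GR cells and 27.9% in WT-GR cells. Among the other acute-phase proteins, 15 of 34 symbols were tested. In S134A-GR cells Dex raised 4 of them and lowered 1, with a median log2 difference of -0.01. In WT-GR cells it raised 5 and lowered 1, with a median of 0.09. FN1, fibronectin, rose by 0.87 in S134A-GR (adjusted p = 0.00326) and 0.91 in WT-GR cells (adjusted p = 0.00195). VWF, von Willebrand factor, fell by 1.17 in S134A-GR (adjusted p = 8.35e-06) and by 1.08 in WT-GR cells (adjusted p = 1.99e-05). HP, haptoglobin, averaged 8.004 and 3.35 normalized counts in S134A-GR Dex and vehicle (log2 difference 1.48, adjusted p = 0.243), and 19.2 and 2.49 in WT-GR Dex and vehicle (2.46, adjusted p = 0.0263). Only WT-GR Dex, the group where HP was high, averaged above the filter value of 10. The call of HP, and the count of 5 that includes it, are therefore a description. The HP call was lost without WT-GR Dex replicate 1 or 3, without WT-GR vehicle replicate 2 or 3 and without both WT-GR Dex replicates 2 and 3 (adjusted p up to 0.101). VWF is also an endothelial marker of the lists, and PECAM1 and CDH5, the other two, averaged higher in Dex: PECAM1 had 2026 and 1141 normalized counts in S134A-GR Dex and vehicle, and 2536 and 1358 in WT-GR Dex and vehicle. The sum of the 3 endothelial markers was 2099 to 2340.5 in S134A-GR Dex and 1447 to 1572 in S134A-GR vehicle, and 2847 to 3399 in WT-GR Dex and 1885 to 2032 in WT-GR vehicle, and its part in the Dex responses was not tested.

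Hepatocyte markers were low in every group, with a sum over 7 genes of 43.8 to 54.6 in S134A-GR Dex, 50.9 to 53.7 in S134A-GR vehicle, 45.8 to 63.9 in WT-GR Dex and 22.2 to 35.8 normalized counts in WT-GR vehicle. APOB did not exceed 3.99 and FGB 3.501 normalized counts in any library, while APOA1 reached 38.9, SERPINC1 28.5 and ALB 21.0 in their highest libraries. Of the neutrophil and monocyte markers, 7 of 10 had a row, summing to 23.6 to 32.0 in S134A-GR Dex, 39.6 to 44.5 in S134A-GR vehicle, 58.0 to 83.8 in WT-GR Dex and 52.1 to 58.1 in WT-GR vehicle, and S100A9 and CSF3R did not exceed 2.03.

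Among the inducers of the acute phase and their receptors and signal carriers, 28 of 30 symbols were tested. In S134A-GR cells 7 rose and 6 fell with Dex, and in WT-GR cells 9 rose and 8 fell, with medians of -0.05 in S134A-GR and 0.04 in WT-GR cells. Of the cytokines, IL11 and IL1B fell in both genotypes, and LIF did as well (by 0.86 in S134A-GR and 0.60 in WT-GR cells). The others named here were called in 1 genotype in the main fit, and some alternatives called them in the other too. IL11 averaged 507 and 3020 normalized counts in S134A-GR Dex and vehicle (log2 difference -2.57, adjusted p = 8.92e-12), and 1018 and 5177 in WT-GR Dex and vehicle (-2.34, adjusted p = 2.23e-11). IL1B, interleukin-1β, averaged 266 and 1207 in S134A-GR Dex and vehicle (-2.18, adjusted p = 4.36e-09), and 454 and 2117 in WT-GR Dex and vehicle (-2.22, adjusted p = 3.74e-09). IL6 had a difference of -0.57 in S134A-GR cells (adjusted p = 0.0897) and fell by 0.75 in WT-GR cells (adjusted p = 0.0173), IL1A had -0.45 in S134A-GR cells (adjusted p = 0.0967) and fell by 0.85 in WT-GR cells, and OSM, oncostatin M, fell by 2.62 in S134A-GR cells (adjusted p = 0.0098) and had -1.36 in WT-GR cells (adjusted p = 0.121). IL1R1, the signalling receptor of interleukin-1, rose by 1.35 in S134A-GR (adjusted p = 6.97e-09) and 1.46 in WT-GR cells (adjusted p = 3.5e-09), and NFKBIA, the inhibitor of NF-kB, rose by 1.27 in S134A-GR and 1.35 in WT-GR cells. IL6R, the ligand-binding chain of the interleukin-6 receptor, averaged 497 and 527 in S134A-GR Dex and vehicle, and 621 and 357 in WT-GR Dex and vehicle. Its responses differed by -0.89 (adjusted p = 0.022), the one called difference of responses in this list. That call was lost with the replicate block (adjusted p = 0.0731) and in 5 of the 12 fits with 1 library left out, those without S134A-GR Dex replicate 2 or 3, S134A-GR vehicle replicate 1 or 3 or WT-GR vehicle replicate 1 (adjusted p up to 0.0751).

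Of the other C/EBP family members and regulators, 19 of 20 symbols were tested. In S134A-GR cells BATF alone was called, and in WT-GR cells 5 rose and 4 fell, with medians of 0.01 in S134A-GR and -0.10 in WT-GR cells. The S134A-GR calls numbered 3 without WT-GR Dex replicate 1, without WT-GR Dex replicate 3 or without both WT-GR Dex replicates 2 and 3, 5 with only the groups compared and 7 with library weights. In WT-GR cells the 9 calls became 3 without WT-GR vehicle replicate 1, 4 without WT-GR vehicle replicate 2 and 2 with only the groups compared. Calls over all 15957 tested genes moved too. In S134A-GR cells they were 2513 in the main fit, 3439 with only the groups compared and 5116 with library weights. In WT-GR cells they were 4455 in the main fit, 2963 without WT-GR vehicle replicate 2 and 2490 with only the groups compared. The lists that follow have the same all-gene counts beside them. BATF, a leucine zipper partner of JUN proteins, rose by 2.31 in S134A-GR (adjusted p = 5.38e-06) and 2.29 in WT-GR cells (adjusted p = 6.32e-06). The other calls in WT-GR cells were small, between -0.24 for TRIB2, which promotes degradation of C/EBPα, and 0.30 for NFIL3 (adjusted p = 0.0139, and 0.0571 without WT-GR vehicle replicate 1). TRIB2 averaged 4976 and 4593 in S134A-GR Dex and vehicle, and 9052 and 10703 normalized counts in WT-GR Dex and vehicle, with a difference of responses of 0.36 (adjusted p = 0.0256). That call was lost with the replicate block (adjusted p = 0.0798) and in 9 of the 12 fits with 1 library left out, all but those without WT-GR Dex replicate 1 or 3 or WT-GR vehicle replicate 3 (adjusted p up to 0.106). Neither CEBPG (adjusted p = 0.135) nor CEBPZ (adjusted p = 0.214) had a called difference of responses in the main fit. Without WT-GR Dex replicate 3 both were called (adjusted p = 0.0363 for CEBPG and 0.0311 for CEBPZ). Both were also called with library weights, and CEBPG by DESeq2. As for CEBPB and CEBPD, these fits came with more calls among all tested genes.

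Among the complement components and regulators, 15 of 32 symbols were tested, of which 3 rose and 2 fell with Dex in S134A-GR cells and 4 rose and 2 fell in WT-GR cells, with medians of 0.0028 in S134A-GR and 0.03 in WT-GR cells. C5AR1, the receptor of the C5a fragment, averaged 127 and 56.2 normalized counts in S134A-GR Dex and vehicle (1.19, adjusted p = 0.000303), and 347 and 111 in WT-GR Dex and vehicle (1.63, adjusted p = 1.61e-05). C3AR1, the receptor of the C3a fragment, fell by 1.09 in S134A-GR (adjusted p = 0.000254) and by 1.04 in WT-GR cells (adjusted p = 0.00036). Without S134A-GR Dex replicate 3, 3 genes were called in S134A-GR cells, and with only the groups compared 3 were called in WT-GR cells. CFP, properdin, rose by 0.45 (adjusted p = 0.0105, and 0.0579 without S134A-GR Dex replicate 3) in S134A-GR and by 0.43 (adjusted p = 0.0101) in WT-GR cells, and like C3 it was lower in S134A-GR cells in Dex (-1.30) and in vehicle (-1.32). C1S, the protease of the C1 complex, was higher in S134A-GR cells in both treatments (1.21 in Dex and 1.60 in vehicle).

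Of the receptors and partners of the acute-phase proteins, 11 of 18 symbols were tested. In S134A-GR cells C3AR1 alone was called, and in WT-GR cells 1 rose and 3 fell, with medians of -0.01 in S134A-GR and -0.0025 in WT-GR cells. With only the groups compared, 3 were called in S134A-GR cells, and the WT-GR calls numbered 7 without WT-GR Dex replicate 3 and also without both WT-GR Dex replicates 2 and 3. FPR2, a receptor for serum amyloid A, averaged 48.3 and 27.5 in S134A-GR Dex and vehicle (0.80, adjusted p = 0.228), and 27.9 and 12.4 in WT-GR Dex and vehicle (0.95, adjusted p = 0.0876). MMP9, which forms a complex with lipocalin 2, was lower in S134A-GR cells in Dex (-2.11) and in vehicle (-2.39), the opposite direction to LCN2.

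**Figure D5:**
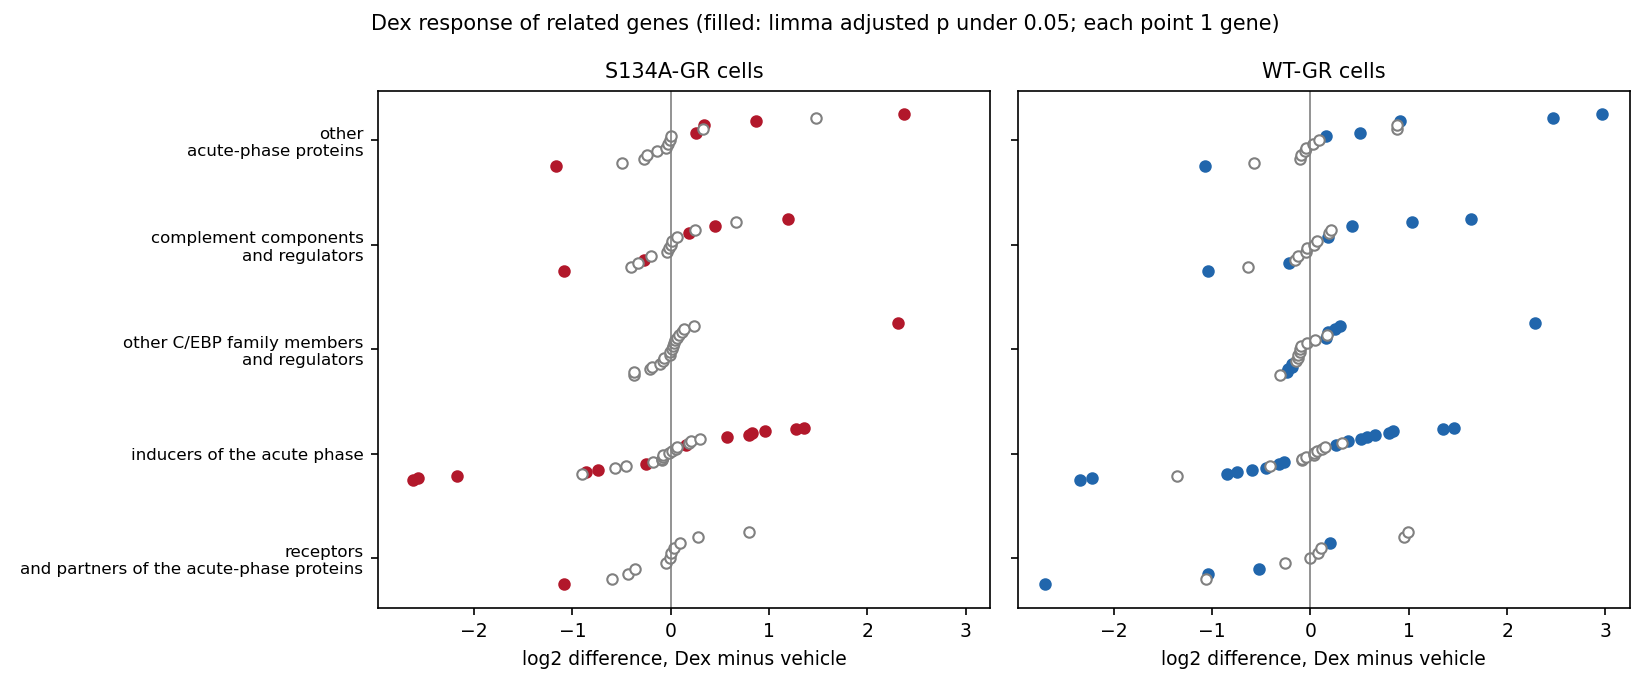
Log2 difference between Dex and vehicle (horizontal axis) of each tested gene of the 5 lists, in S134A-GR cells (left) and WT-GR cells (right). Each point is 1 gene, and filled points passed the limma test. Among the C/EBP family members and regulators BATF lies furthest right in both panels (2.31 in S134A-GR, 2.29 in WT-GR), and among the inducers IL11 and IL1B are among the points furthest left.

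The genes whose pattern over the 12 libraries lay nearest to 3 of the members were found by the root mean square difference between log2 profiles, each centred on its own mean. For SAA1, whose own profile had a root mean square of 2.05 about its mean, they were EDN2, which encodes endothelin-2 (0.44), ALPP, which encodes placental alkaline phosphatase (0.45), and the RNA gene RHOXF1-AS1 (0.48). For CEBPD (1.23) they were ZFP36L2, an RNA-binding protein that promotes mRNA decay (0.20), ADRA1B, an adrenergic receptor (0.22), and OPN4, melanopsin (0.23). EDN2 averaged 943 and 39.2 normalized counts in S134A-GR Dex and vehicle, and 1371 and 176 in WT-GR Dex and vehicle. For LCN2 (0.76) they were EN2, the homeobox gene engrailed 2 (0.19), ADSSL1, an enzyme of purine metabolism (0.23), and CTXN1 (0.23). EN2 averaged 585 and 476 in S134A-GR Dex and vehicle, and 253 and 166 in WT-GR Dex and vehicle. LCN2 is low in reads, so its profile carries more counting noise than those of its nearest genes.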

How the data were processed

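RNA-seq of 12 libraries of MDA-MB-231 cells was analysed, 3 in each of 4 groups of receptor genotype by treatment, grouped by the labels. The submitters' processing notes name the build hg38 and the tools DESeq2 1.22.2, FastQC 0.11.7, Subread and featureCounts, without role or order. Aligner, annotation and strand setting: not given in the sources used here. The deposited signal is a read count divided by 1 size factor per library, as read from the values: in every library 100% of the values were whole multiples of 1 step within 0.01 reads. The reads recovered in this way totalled 56.4 to 100.6 M per library. Of counts from 1 to 20, 58.2 to 67.5% were even, so independent fragments may be fewer than reads.

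The vehicle files hold 19907 names and the Dex files 26485, of which 6578 have no value, and 8 lines carry the same name in both. Except for 26 vehicle names, the vehicle names follow the order of the Dex names. Dex values therefore took the vehicle names by line. By deposited name the correlation with the vehicle mean was -0.0059 to -0.0040.

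All 12 libraries entered 1 fit of limma 3.58.1 (R 4.3.3, mean-variance trend, two-sided) on log2(value + 1), restricted to genes that reached 10 in 3 or more libraries. Spread was estimated over all groups together, p-values were adjusted by Benjamini-Hochberg over 15957 genes, and calls were made under 0.05. This scale understates changes of low values. edgeR 4.0.16 (quasi-likelihood, TMM or library size only) and DESeq2 1.42.0 used the recovered reads as alternatives. Further alternatives were a pseudocount of 8, no filter, only the groups compared, library weights, a replicate block and left-out libraries. The fit was tested on simulated data.

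The named genes are the 10 members, overlapping loci, up to 4 called genes with the largest change and up to 2 uncalled leading genes from each of 5 lists in each comparison, the 3 genes nearest in pattern to SAA1, LCN2 and CEBPD, NR3C1 and cell markers, and some are given by their range or counts only. A gene that the rule names is not reported here. Members, lists and tests were chosen with earlier results of these data known. Positions are from GENCODE 29 (GRCh38), matched by symbol.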

Additional observations from a re-analysis of the deposited data

How the results depend on the processing

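Every call of SAA1, CEBPB and CEBPD in the Dex response of either genotype kept its direction and its side of the threshold under all alternatives run, as did those of SERPINA3 in WT-GR cells. The genotype calls of SAA1, SAA2, SERPINA3 and C3 in both treatments, of LCN2 and CEBPB in vehicle and of CEBPD in Dex did so too. No called value changed sign. Of 842 values of single members under the alternatives, 34 lost a call and 19 gained one. The members called for Dex in S134A-GR cells fell to 3 with only the groups compared in the fit, and were 3 to 5 with 1 library left out. The members called for the difference of responses were 2 with DESeq2, 2 with library weights, 2 without both WT-GR Dex replicates 2 and 3, and 0 to 2 with 1 library left out. Among all genes, 4455 were called for Dex in WT-GR cells, against 2490 with only the groups compared, 7113 with library weights and 2963 without WT-GR vehicle replicate 2. In S134A-GR cells 2513 were called, against 5116 with library weights. For the difference of responses 66 were called, against 506 by DESeq2, 2854 with library weights, 25 with the replicate block, 2550 without both WT-GR Dex replicates 2 and 3, and 26 to 1604 with 1 library left out. Of 15 other acute-phase proteins tested, 10 were called for genotype in Dex, beside 49.7% of all tested genes. They include LRG1, which averaged 1.26 normalized counts in S134A-GR Dex and 9.09 in WT-GR Dex, and LBP (19.2 and 4.77). Each passed the filter mainly through the genotype where it was high, so the count of 10 is a description. This count fell without both WT-GR Dex replicates 2 and 3. Of 11 receptors and partners tested, 8 were called for genotype in vehicle, beside 50.5% of all tested genes, and 5 without S134A-GR vehicle replicate 1. The causes of these changes were not tested.

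No pairing by replicate number was seen in the correlations. Deviations of same-numbered libraries correlated at -0.085 to 0.051 over 12 pairs, and in 4 of these the same number was the best match. Replicates 1 of WT-GR Dex and WT-GR vehicle had the lowest depths, 56.9 and 56.4 M reads, and whether they share a batch was not tested. With the replicate block, SAA2 lost its Dex call in S134A-GR (adjusted p = 0.0575) and in WT-GR cells (adjusted p = 0.0549), LCN2 lost its genotype call in Dex (adjusted p = 0.0684), and no other member changed its call. edgeR scaled by library size only put the share of higher calls at 32.4% for Dex in WT-GR cells (55.2% in edgeR with TMM, where the scaling alone differs, and 49.7% in limma), 64.9% for genotype in Dex (47.0% in each) and 59.6% for genotype in vehicle (49.0% with TMM, 47.2% in limma). The median of all genes for genotype in Dex was 0.11 on the log2 scale with library size only, 0.01 with TMM and 0.01 in limma. Beside limma, library size only changed 1 call of a member: CEBPA was called for genotype in vehicle (0.57, adjusted p = 0.0422). Library weights also called CEBPA there (adjusted p = 0.000538). A sum of ORM1 and ORM2 was not run, since ORM2 was not analysed here. Depth limits SAA2 and LCN2 most, at 2 to 100 and 3 to 25 reads per library.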
